A study of Mus musculus with 8 samples.

Results

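The mitochondrial calcium uniporter complex was examined through 6 of its genes, Mcu, Mcub, Smdt1, Micu2, Micu3 and Mcur1, out of 27179 genes counted in cultured mouse mammary tumour lines. Their rows were found by Entrez identifier, and all 6 were present and passed the filter on low counts, Micu2 through the lines in which it is high. The set was chosen because Micu2 had been seen near 0 in 2 of the lines, so the levels of Micu2 in those lines are given as a description with no test. The other members were chosen for belonging to the same complex and were tested. Ccdc90b and Slc25a23, a pair of further genes linked to the complex, were added.

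RNA was sequenced from 4 isogenic lines derived from BALB/c mice, 4T1.2, 4T1, 66cl4 (which the labels spell with the digit 1 for the letter l) and 67NR, none of them under any treatment, with 2 biological replicates of each. The 4T1.2 and 4T1 lines are the ones with the higher metastatic potential, and 66cl4 and 67NR are related lines of low potential. Each group is 1 line, so metastatic potential and any other property of a line cannot be told apart. Nothing says how far apart the replicate cultures were kept, and the p-values measure the spread between these libraries. Because the libraries are bulk RNA, fewer cells expressing a gene and less RNA per cell cannot be told apart.

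The uniporter is the channel by which calcium enters the mitochondrial matrix. MCU forms the pore, MCUB is a related subunit that lowers the current when it takes the place of MCU, and EMRE, encoded by Smdt1, is required for the pore to conduct and links it to the gatekeepers. MICU2 and MICU3 are gatekeepers in the intermembrane space, where their EF hands bind calcium and help set the level at which the pore opens, and MCUR1 is an assembly factor.

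Total counts per library ran from 37159840 to 66269681. Levels are given as CPM, counts scaled to a common library size by the effective library totals, or as RPKM, which also divides by gene length and is the only scale on which levels of different genes are compared. The epithelial identity of the lines was uneven, since Epcam and Cdh1, which mark epithelial cells, had 0 to 1 and 2 to 7 counts per library in 66cl4 and 67NR, while the keratin gene Krt8 was read in every library (at least 16981 counts). Other keratin genes were not kept in this way. Krt18 averaged 582, 1023, 114 and 0.977 CPM in 4T1.2, 4T1, 66cl4 and 67NR, and Krt7 393, 497, 2.51 and 0.991. Krt5 and Krt14 averaged at most 0.114 and 0.721 CPM in any line. The 7 epithelial markers summed to 1840 to 3437 CPM for 4T1 and 4T1.2 and 465 to 722 CPM for the other lines. Most of the latter was Krt8, which averaged 604 CPM in 66cl4 and 496 in 67NR. The 5 fibroblast markers summed to 116 to 172 CPM and to 252 to 513 CPM, respectively. Most of that difference came from Pdgfrb (1.44 and 3.07 CPM on average in 4T1.2 and 4T1, 346 and 176 in 66cl4 and 67NR), while Pdgfra went the other way (162, 113, 133 and 86.5 CPM, pooled log2 fold change 0.34, adjusted p = 0.00279, edgeR). The 7 leucocyte markers summed to at most 0.496 CPM in any library, with Cd3e and Adgre1 at 0 throughout, and the 5 endothelial markers to at most 3.70 CPM. The part of these marker differences in the results below was not tested.

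The 250 bases before an annotated transcript start are shown for Micu2, Slc25a23 and Mcu. Slc25a23 was also near 0 in 66cl4 and 67NR, and the pore gene Mcu was read in all lines. These starts need not be the outer end of a gene. The Mcu window lies wholly within the span of Mcu (59446984 to 59617409), and the Micu2 and Slc25a23 windows overlap the ends of their genes. The windows are RefSeq sequences of GRCm38.p6 on the minus strand, written 5′ to 3′, and capitals mark CG dinucleotides.
Micu2, chr14:57999263-57999512: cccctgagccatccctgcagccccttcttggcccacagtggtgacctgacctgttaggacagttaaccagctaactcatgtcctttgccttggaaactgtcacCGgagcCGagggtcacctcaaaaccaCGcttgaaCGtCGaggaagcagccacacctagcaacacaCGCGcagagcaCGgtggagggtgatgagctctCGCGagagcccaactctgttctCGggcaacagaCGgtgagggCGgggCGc
Slc25a23, chr17:57059864-57060113: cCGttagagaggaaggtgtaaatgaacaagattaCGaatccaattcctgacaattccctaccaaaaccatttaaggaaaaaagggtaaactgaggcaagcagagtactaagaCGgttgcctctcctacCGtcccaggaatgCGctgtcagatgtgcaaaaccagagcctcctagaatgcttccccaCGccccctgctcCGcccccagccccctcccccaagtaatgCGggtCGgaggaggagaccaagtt
Mcu, chr10:59616693-59616942: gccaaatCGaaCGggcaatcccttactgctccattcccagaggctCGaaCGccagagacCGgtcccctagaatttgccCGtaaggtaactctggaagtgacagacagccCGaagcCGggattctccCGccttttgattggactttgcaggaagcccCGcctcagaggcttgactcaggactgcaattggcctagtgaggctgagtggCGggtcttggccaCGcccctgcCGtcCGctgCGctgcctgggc
The Micu2 window held 14 CG dinucleotides, and 29.4% of the 32851 promoter windows of this length held at least as many. The Mcu window held 15, with 27.3% of windows at or above it, and the first of the annotated starts of Slc25a23 held 9, with 40.3%. A second annotated start of Slc25a23 held 12, with 33.5%. Whether CG content has a part in the near absence was not tested. No methylation or binding was measured in these lines.

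Micu2 (chromosome 14, 57916280 to 57999296, minus strand, GRCm38) was an abundant transcript in 4T1.2 and 4T1 and was all but unread in 66cl4 and 67NR. It reached 10375 and 8508 counts for 4T1 and 10728 and 11318 for 4T1.2. For 67NR the libraries held 0 and 1 count, and for 66cl4 they held 2 and 1. The groups did not come near each other, and the 0 in 67NR replicate 1 allows a level of up to 0.0819 CPM (3 counts, counting error only).

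The mean CPM of Micu2 was 177 ± 9.66 for 4T1 and 194 ± 7.60 for 4T1.2 (SD, n = 2). Scaled to effective library size, the 40929 counts of 4T1.2 and 4T1 against the 4 of 66cl4 and 67NR gave a ratio of 8728, with an exact 95% interval of 3408 to 32033 that covers counting error only. Between 4T1.2 and 4T1, the one comparison of Micu2 that did not choose it, the log2 difference was 0.14 (standard error 0.09) with an adjusted p of 0.373 (edgeR's quasi-likelihood test, Benjamini-Hochberg over the 13923 genes tested, here and throughout). Its 95% interval ran from -0.13 to 0.40, so a difference of that size was not detectable with these libraries.

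Near absence of this kind was found for other genes too. Of the 13923 genes tested, 444 had at most 3 counts in every 66cl4 and 67NR library, and these passed the filter on low counts through 4T1 and 4T1.2 only. Of these, 2 exceeded 100 CPM in every 4T1 and 4T1.2 library, Micu2 among them. Since the same pattern chose Micu2, its place among the 444 is a description only. None of the 75-base stretches of the Micu2 transcripts occurred in a transcript of another gene, and no annotated gene overlapped it.

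**Figure D1:**
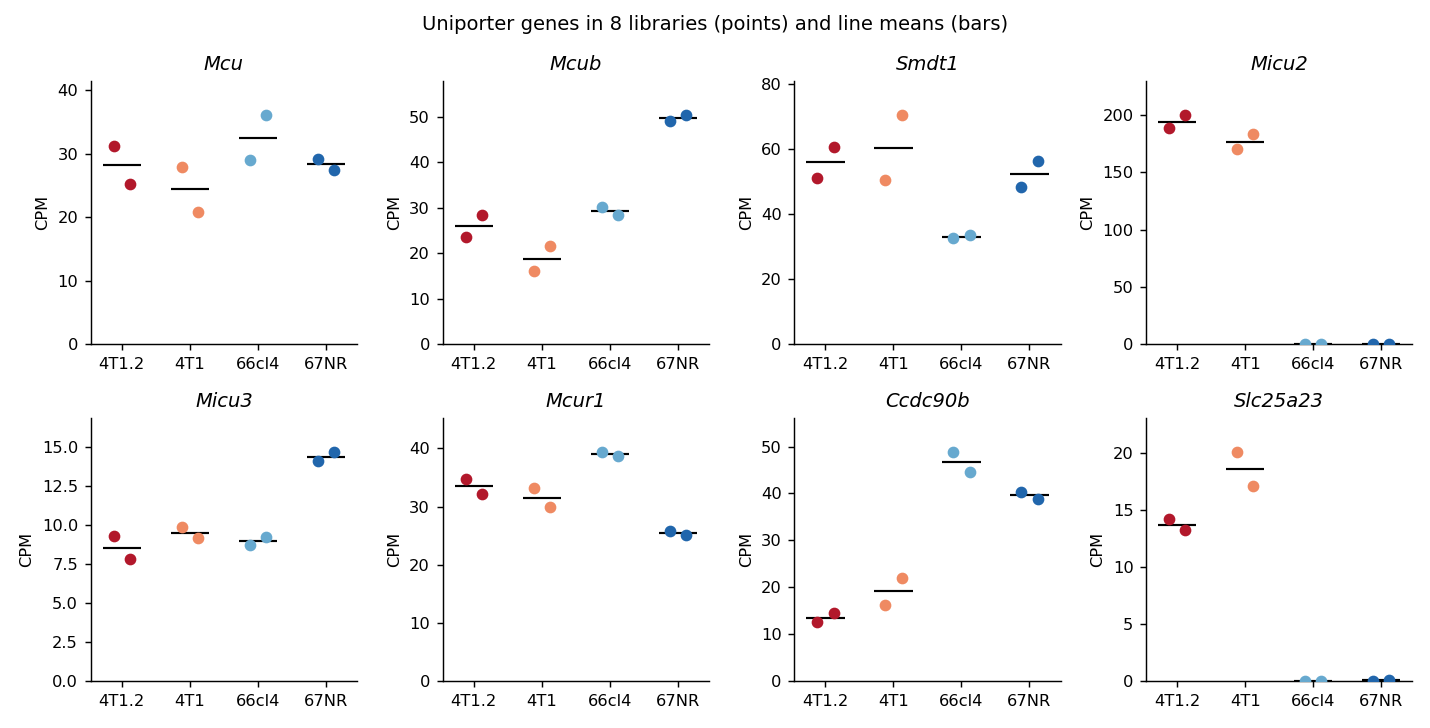
CPM of 8 uniporter genes in each of the 8 libraries (points) with the mean of each line (bars), on axes that start at 0. Micu2 and Slc25a23 lie at the axis in 66cl4 and 67NR, and the other 6 genes were read in every line.

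Mcu (chromosome 10, 59446984 to 59617409, minus strand), which encodes the pore, was read at like levels in the 4 lines. By library, its CPM was 29.2 and 27.4 for 67NR, 29.0 and 36.1 for 66cl4, 27.9 and 20.9 for 4T1 and 31.2 and 25.3 for 4T1.2. The lowest library was 4T1 replicate 2 and the highest 66cl4 replicate 2, and the pairs of lines overlapped, while both 66cl4 libraries lay above both of 4T1. For 4T1.2 and 4T1 over 66cl4 and 67NR, taken as the means of each pair of lines, the log2 fold change was -0.21 ± 0.12 (standard error), with an adjusted p of 0.126 by edgeR, with a 95% interval of -0.53 to 0.11. Without 4T1 replicate 1 the value was -0.32 and passed the threshold (adjusted p = 0.0140, edgeR), so the call for Mcu depended on 1 library. A predicted gene, Gm10322, overlaps Mcu on the other strand, and whether the counting used strand is not given in the sources used here.

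In this pooled comparison 3 of the 5 members tested passed an adjusted p of 0.05, against 76.7% of all genes tested, or 60.0% of the members. Smdt1 was higher in 4T1.2 and 4T1 (38.1% of all genes were), Mcub and Micu3 were lower (38.6%), and Mcu and Mcur1 were not called. In none of the 5 were the libraries of the pairs of lines fully apart, whereas 55.5% of all genes were. The median log2 fold change of the 5 was -0.21, beside -0.01 over all genes.

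Mcub (chromosome 3, 129914960 to 129970211, minus strand), the pore subunit that dampens the current, had its highest level in 67NR. Its CPM by library was 49.1 and 50.4 for 67NR, 30.2 and 28.5 for 66cl4, 16.2 and 21.5 for 4T1 and 23.6 and 28.5 for 4T1.2. Both 67NR libraries lay above all the others, while 66cl4 overlapped 4T1.2. The pooled log2 fold change was -0.79 ± 0.10 (standard error), with an adjusted p of 5.61e-05 by edgeR, a level 1.73-fold higher in 66cl4 and 67NR.

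The difference in Mcub was carried unevenly by the lines. Its log2 fold change was -1.40 for 4T1 over 67NR, -0.93 for 4T1.2 over 67NR and -0.64 for 4T1 over 66cl4, all past the threshold, and -0.17 for 4T1.2 over 66cl4, which was not (adjusted p = 0.301, edgeR). These comparisons share libraries. Mcub was lower in 66cl4 than in 67NR by -0.76 (adjusted p = 0.00196, edgeR). The tested genes of chromosome 3 had a median 0.59 below that of all genes in the same comparison (log2), and the part of this shift in the Mcub value was not tested.

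Smdt1 (chromosome 15, 82346046 to 82349062, plus strand), which encodes EMRE, was lowest in 66cl4. By library, its CPM was 48.4 and 56.4 for 67NR, 32.6 and 33.5 for 66cl4, 50.6 and 70.4 for 4T1 and 51.1 and 60.7 for 4T1.2. Both 66cl4 libraries lay below the other 6, and 67NR overlapped 4T1.2 and 4T1. The pooled log2 fold change was 0.48 ± 0.11 (standard error), with an adjusted p of 0.00269 by edgeR. For single lines it was 0.76 and 0.87 for 4T1.2 and 4T1 over 66cl4, past the threshold (adjusted p = 0.00175 and 0.000732, edgeR), and 0.09 and 0.20 over 67NR, which were not (adjusted p = 0.618 and 0.267, edgeR). Without 4T1 replicate 1 the last of these was 0.42 and passed (adjusted p = 0.0124, edgeR). Smdt1 was lower in 66cl4 than in 67NR by -0.67 (adjusted p = 0.00696, edgeR), a call lost without 67NR replicate 2 (adjusted p = 0.0701, edgeR). Transcripts of Pheta2 held 6.0% of the 75-base stretches of Smdt1.

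**Figure D2:**
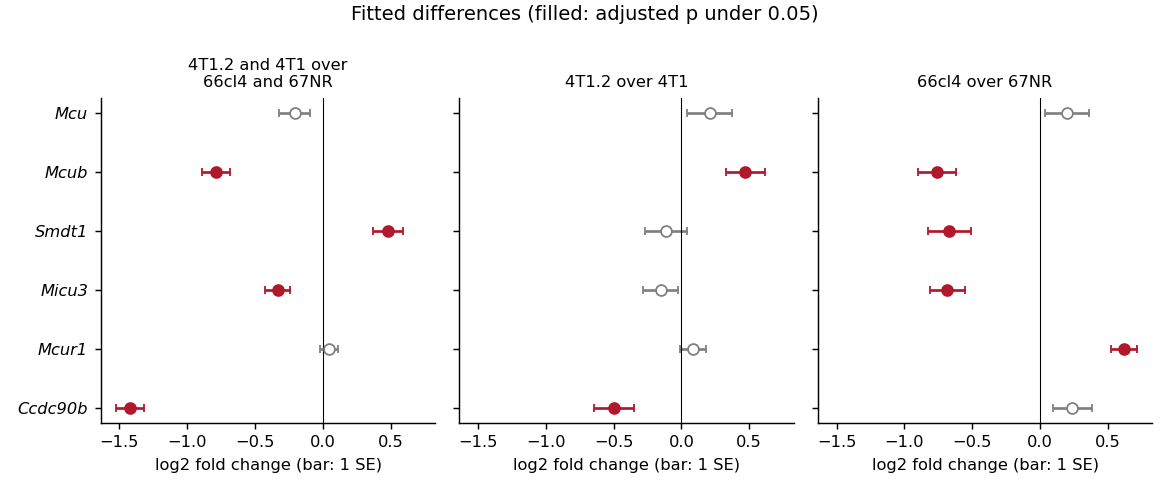
Log2 fold change with 1 standard error (edgeR) of 6 genes in the pooled comparison, in 4T1.2 over 4T1 and in 66cl4 over 67NR, filled where the adjusted p was under 0.05. Ccdc90b has the largest pooled difference (-1.42), and Mcur1 lies near 0 in the pooled panel (0.04).

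Micu3 (chromosome 8, 40307438 to 40388782, plus strand), a gatekeeper known mainly from nervous tissue, was read at a low level in every line and was highest in 67NR. The libraries had a CPM of 14.1 and 14.7 for 67NR, 8.68 and 9.22 for 66cl4, 9.84 and 9.13 for 4T1 and 9.28 and 7.78 for 4T1.2. Only the 67NR libraries stood apart from the rest, above the other 6. The pooled log2 fold change was -0.33 ± 0.09 (standard error), with an adjusted p of 0.00694 by edgeR.

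By line, Micu3 passed the test against 67NR and not against 66cl4, and whether these differences themselves differ is given by 66cl4 over 67NR. Its log2 fold change was -0.75 for 4T1.2 and -0.60 for 4T1 over 67NR (adjusted p = 0.000501 and 0.00206, edgeR), and -0.07 and 0.08 over 66cl4 (adjusted p = 0.650 and 0.573, edgeR), with 95% intervals of -0.43 to 0.29 and -0.27 to 0.44. Between the lines with Micu2 near 0, the difference was -0.68 for 66cl4 over 67NR (adjusted p = 0.00194, edgeR). Of the lines in which Micu2 was near 0, Micu3 thus passed the test as higher in 67NR only. Genes of chromosome 8 had a median 0.30 below that of all genes in the last comparison, and 3.36% of the Micu3 stretches were shared with Fgf20, which overlaps it on the other strand.

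On the RPKM scale, which allows the genes to be set side by side, Micu2 had a level of 76.5 ± 4.18 in 4T1 and 84.1 ± 3.29 in 4T1.2 (SD, n = 2), and 0.0144 ± 0.00669 and 0.00351 ± 0.00496 in 66cl4 and 67NR. The level of Micu3 was 4.39 ± 0.130 RPKM in 67NR, 2.74 ± 0.116 in 66cl4, 2.90 ± 0.155 in 4T1 and 2.61 ± 0.325 in 4T1.2. The highest line mean of Micu3 was thus under that of Micu2 in 4T1 and 4T1.2. Smdt1 was the most abundant of the members per length in all 4 lines, at 56.4 ± 1.05 RPKM in 66cl4 and 89.6 ± 9.64 to 103 ± 23.9 in the other lines. Mcu ranged from 8.49 ± 1.71 to 11.3 ± 1.74 and Mcur1 from 5.83 ± 0.109 to 8.97 ± 0.102. Since Micu2 chose the set, these values carry no test.

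**Figure D3:**
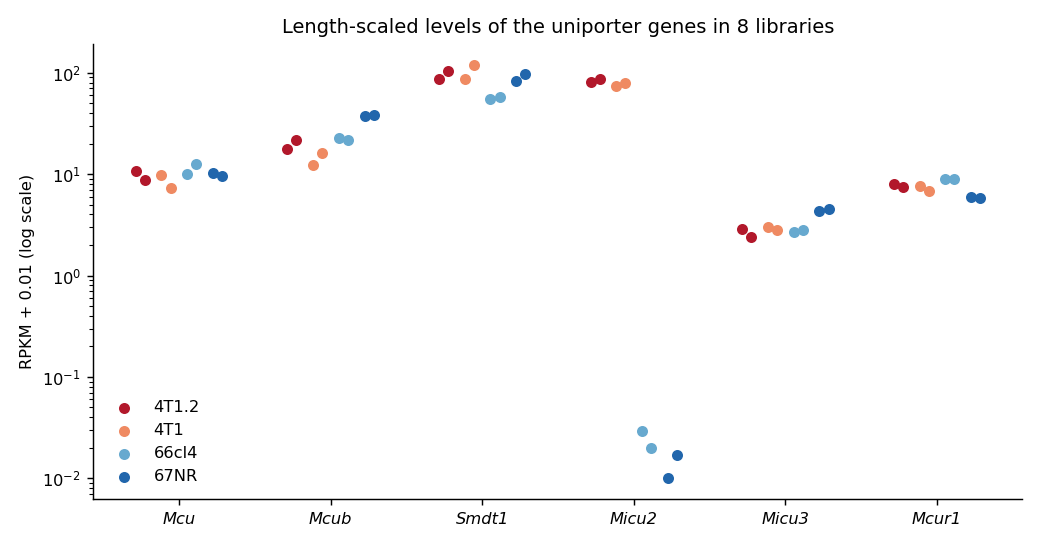
RPKM plus 0.01 (log scale) of the 6 members in each of the 8 libraries, coloured by line. Micu2 falls to means of 0.0144 and 0.00351 RPKM in 66cl4 and 67NR, while the line means of the other 5 members stay between 2.61 and 103 RPKM.

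Ratios to Mcu within each library, on the RPKM scale and without Micu2, were compared by a two-sided exact permutation test over the libraries (4 against 4, smallest p 0.0286, Benjamini-Hochberg over 3 ratios). Mcub per Mcu came to 3.83 ± 0.237 for 67NR, 1.997 ± 0.389 for 66cl4, 1.75 ± 0.692 for 4T1 and 2.05 ± 0.573 for 4T1.2. The difference in mean log2 ratio, 4T1.2 and 4T1 minus 66cl4 and 67NR, was -0.58 (exact p = 0.171, adjusted 0.257). For Smdt1 per Mcu it was 0.69 (exact p = 0.143, adjusted 0.257), with 9.91 ± 2.64, 12.7 ± 5.38, 5.03 ± 0.680 and 9.11 ± 1.38 in 4T1.2, 4T1, 66cl4 and 67NR. In both ratios the pairs of lines overlapped, and libraries of a line are not independent of each other, which the p-values do not take into account.

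Mcur1 (chromosome 13, 43538406 to 43560344, minus strand), the assembly factor, was highest in 66cl4 and lowest in 67NR. By library, its CPM was 25.7 and 25.1 for 67NR, 39.4 and 38.7 for 66cl4, 33.2 and 29.8 for 4T1 and 34.7 and 32.2 for 4T1.2. The 4T1.2 and 4T1 libraries lay between those of the other lines, and the pooled log2 fold change was 0.04 ± 0.07 (standard error), with an adjusted p of 0.562 by edgeR. Between 66cl4 and 67NR it was 0.62 (standard error 0.10, adjusted p = 0.000634, edgeR). A pooled value near 0 thus stood over opposite differences, with 4T1.2 over 67NR at 0.40 (adjusted p = 0.00445, edgeR) and over 66cl4 at -0.22 (adjusted p = 0.0607, edgeR), which passed without either 4T1 library (adjusted p = 0.0413 and 0.0485, edgeR). For 4T1 the values were 0.31 over 67NR and -0.31 over 66cl4 (adjusted p = 0.0158 and 0.0156, edgeR). The first of these was lost without 4T1 replicate 1 or either 67NR library (adjusted p = 0.0817, 0.0596 and 0.0900, edgeR), and the second without 4T1 replicate 2 or 66cl4 replicate 1 (adjusted p = 0.0906 and 0.0604, edgeR) and with a fit of these libraries alone (0.0572).

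The same counts were made for the single lines. For 66cl4 over 67NR, 4 of the 5 tested members were called, against 44.7% of all genes. Mcur1 was higher (22.3% of all genes were) and Mcub, Smdt1 and Micu3 were lower (22.4%), and Mcu was not (log2 fold change 0.20, adjusted p = 0.354, edgeR). For 4T1.2 over 4T1, 1 of 5 was called, against 19.3% of all genes. This was Mcub, at 0.47 (standard error 0.14, adjusted p = 0.0478, edgeR), and the call was lost when any library other than 4T1 replicate 2 was left out (adjusted p from 0.0554 to 0.281, edgeR). For 4T1.2 over 66cl4, 1 of 5 was called (68.9% of all genes), and for 4T1.2 over 67NR 3 of 5 (67.9%). For 4T1 over 66cl4, 4 of 5 were called (70.1%), and for 4T1 over 67NR 3 of 5 (68.2%). One of the calls for 4T1 over 66cl4 was Mcu, at -0.41 (adjusted p = 0.0455, edgeR), which was lost without 4T1 replicate 2, 66cl4 replicate 2 or either 67NR library (adjusted p from 0.0705 to 0.284, edgeR). It was also lost with at least 10 counts in every library, without removal by annotation and with a fit of these libraries alone (adjusted p = 0.0616, 0.0638 and 0.0728, edgeR).

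Of the added genes, Slc25a23 (chromosome 17, 57043711 to 57059909, minus strand), a calcium-binding carrier of the inner membrane that has been linked to MCU, was also near 0 in 66cl4 and 67NR. Its counts were 1226 and 793 for 4T1, 805 and 750 for 4T1.2, 1 and 4 for 67NR and 1 and 0 for 66cl4. The groups were fully apart, with 3574 counts against 6 and a ratio of counting rates of 508 (exact 95% interval 233 to 1385, counting error only). It passed the filter on low counts through 4T1 and 4T1.2 only, so these values too are a description with no test. Between 4T1.2 and 4T1 its log2 fold change was -0.44 (adjusted p = 0.0625, edgeR), with libraries that did not overlap, beside 0.14 for Micu2. Crb3 and an antisense gene overlap Slc25a23.

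Ccdc90b (chromosome 7, 92561149 to 92582294, plus strand), a paralogue of Mcur1, was higher in 66cl4 and 67NR. In CPM, the libraries had 40.3 and 38.9 for 67NR, 48.8 and 44.6 for 66cl4, 16.2 and 21.96 for 4T1 and 12.5 and 14.6 for 4T1.2. The libraries of the pairs of lines did not overlap, and the level was 2.68-fold higher in 66cl4 and 67NR (pooled log2 fold change -1.42, standard error 0.10, adjusted p = 8.15e-07, edgeR). All 4 comparisons of single lines across the pairs passed the threshold, at -1.79 and -1.55 for 4T1.2 and -1.29 and -1.06 for 4T1 over 66cl4 and 67NR. Ccdc90b was also called for 4T1.2 over 4T1, at -0.49 (adjusted p = 0.0436, edgeR), and at -0.70 to -0.26 with a library left out. That call was lost with a fit of these libraries alone (adjusted p = 0.130, edgeR) and with limma-voom (adjusted p = 0.0615, limma-voom). It was also lost with at least 10 counts in every library and without removal by annotation (adjusted p = 0.0526 and 0.0513, edgeR). Ankrd42 overlaps Ccdc90b on the other strand, and 11.8% of the Ccdc90b stretches were shared with it.

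Around Micu2, the annotation has 11 other protein-coding genes within 500 kb, of which 9 were tested. In the pooled comparison 7 were higher and 1, Lats2, a kinase of the Hippo pathway, was lower (-0.65), beside 38.1% and 38.6% of all genes, with a median of 0.46. One of the 7, Il17d, passed the filter on low counts through 4T1 and 4T1.2 only. The tested genes of chromosome 14 had a median 0.52 above that of all genes. The nearest neighbour of Micu2, Zdhhc20, a palmitoyltransferase 25.4 kb away, was read in all 4 lines, with a CPM of 112 ± 3.95 for 67NR, 144 ± 23.1 for 66cl4, 134 ± 6.07 for 4T1 and 181 ± 3.04 for 4T1.2, so this neighbour was not near 0 where Micu2 was. Its log2 fold change was 0.29 (adjusted p = 0.00651, edgeR).

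A second gene of the stretch, Il17d, which encodes a cytokine and lies 373.1 kb away, had 0 counts in all 66cl4 and 67NR libraries, which allows up to 0.0486 to 0.0819 CPM by library. Its CPM was 2.55 ± 0.244 for 4T1 and 4.38 ± 0.118 for 4T1.2. Between it and Micu2, Gm52140 had no row in the counts, and the other protein-coding genes were read in all lines. Of these, Mrpl57, a mitochondrial ribosome gene, was higher by 1.30, Eef1akmt1, a lysine methyltransferase gene, by 0.94, the spindle gene Ska3 by 0.67 and Sap18, of a histone deacetylase complex, by 0.46 (log2). Beyond Il17d, the ciliary gene Ift88 was higher by 0.39. The exportin gene Xpo4 was not called (0.11, adjusted p = 0.428, edgeR), but passed without 4T1 replicate 2 (0.24, adjusted p = 0.0209, edgeR). On the other side of Micu2, Fgf9 had 0 to 6 counts per library and was too low to test.

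**Figure D4:**
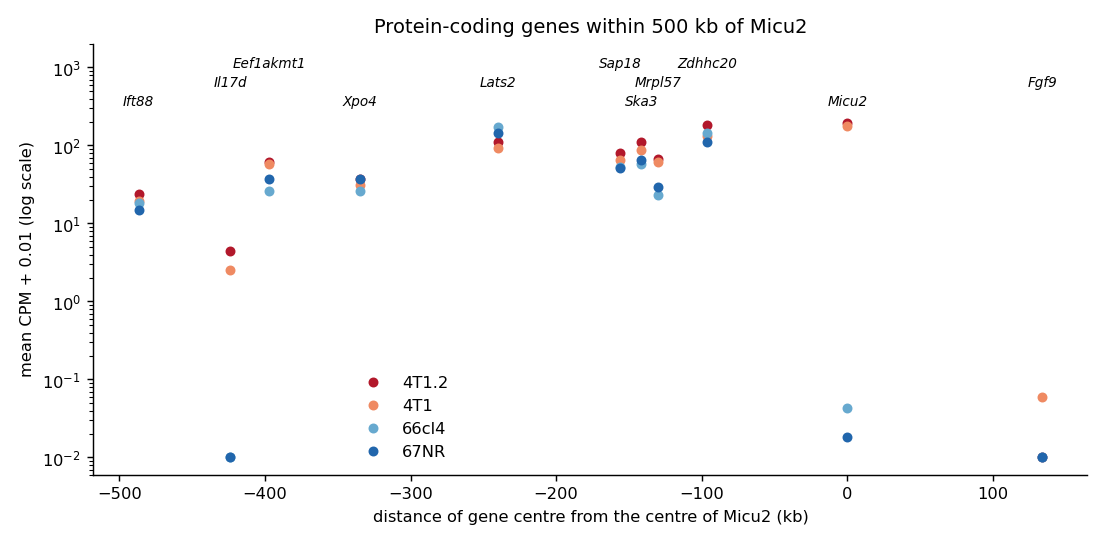
Mean CPM of each line plus 0.01 (log scale) for Micu2 and its protein-coding neighbours, by distance between gene centres in kb. Zdhhc20, Ska3, Mrpl57 and Sap18 beside Micu2 were read in all 4 lines, while Micu2 and Il17d drop in 66cl4 and 67NR.

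The genes whose pattern over the 8 libraries was closest to that of Micu2, by the root mean square difference of centred log2 CPM, were Plau (0.41), Cyba (0.67), Tnfrsf19 (0.71), Serpine2 (0.71) and Rnf130 (0.72). Plau, the urokinase gene, had 35029 to 72698 counts in the 4T1.2 and 4T1 libraries and 13 to 17 in the others. Cyba, a subunit of NADPH oxidase, had 4246 to 5496 and 0 to 2. Slc25a23 ranked 126 by this measure, and since the lines fall into 2 clusters no correlation is given.

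The wider machinery of mitochondrial calcium was described through lists of genes grouped by role. Of the 9 genes of assembly and turnover tested, 5 were higher and 2 lower in 4T1.2 and 4T1 in the pooled comparison, with a median of 0.22. That is 77.8% called, near the 76.7% of all genes, and the shares of the lists that follow are to be read against the same 76.7%. Phb, a prohibitin of the inner membrane, was higher by 1.21 (log2) and Phb2 by 0.40. Maip1, which protects EMRE before assembly, was higher by 0.56, and Yme1l1, a protease that degrades surplus EMRE, by 0.42. Of the subunits of the m-AAA protease, which also removes EMRE, Afg3l2 was lower by -0.30 and Spg7 higher by 0.22. The mean CPM of Spg7 was 124 in 4T1.2 and in 4T1, 83.1 in 66cl4 and 136 in 67NR. Its pooled value thus stood over a higher level than in 66cl4 and a lower one than in 67NR. Chchd4, an oxidoreductase of the intermembrane space, was not called (-0.07, adjusted p = 0.369, edgeR).

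Of 6 genes of calcium efflux and exchange tested, 3 were higher and 2 lower (83.3% called), with a median of 0.09. Slc8b1, the mitochondrial sodium-calcium exchanger, was lower in 4T1.2 and 4T1 (-0.47, adjusted p = 0.000511, edgeR), with a CPM of 25.1 ± 3.33 and 28.9 ± 0.278, against 40.0 ± 0.672 in 66cl4 and 34.6 ± 3.68 in 67NR. Tmem65, which has been tied to the same exchange, was higher by 0.36, and the exchanger genes Letm1 and Ghitm by 0.68 and 0.58. The plasma membrane exchanger Slc8a3, counted among the lower genes (-1.79), had 6 to 12 counts in the 4T1.2 and 4T1 libraries and 15 to 34 in the others. It passed the filter on low counts only through 66cl4 and 67NR, so its values are a description. Slc8a1 had 0 counts in every library and was not tested.

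Transfer from the endoplasmic reticulum and the supply of calcium moved in both directions. Of 12 transfer genes, 4 were higher and 4 lower (66.7% called, median 0.03), among them the outer membrane channel Vdac2, higher by 0.95, and the tether gene Rmdn3, higher by 0.60. Pacs2, which shapes contacts of the reticulum with mitochondria, was lower by -0.68 and mitofusin 2 (Mfn2) by -0.52. Of 10 genes of reticulum and plasma membrane calcium tested, 5 were higher and 4 lower (90.0% called, median 0.03). The store-operated channel genes parted, with Orai1 higher by 1.66 (mean CPM 28.1 for 4T1, 21.4 for 4T1.2, 12.1 for 67NR and 4.99 for 66cl4) and Orai2 lower by -1.85 (mean CPM 8.82, 9.45, 35.6 and 30.6 in the same order). The ryanodine receptor Ryr1, counted among the higher genes (2.84), had 37 to 53 counts in the 4T1.2 and 4T1 libraries and 3 to 9 in the others. The calcium pump Atp2b4, counted among the lower genes, had 0 to 1 counts in the 4T1.2 and 4T1 libraries and 10 to 15 in the others. Atp2a1, also counted among the lower genes, had 3 to 18 counts in the 4T1.2 and 4T1 libraries and 11 to 25 in the others. Ryr1, Atp2b4 and Atp2a1 passed the filter on low counts only through the lines in which they are high. Their values are therefore a description, and their calls are part of the 90.0%. Atp2a3 (0 to 2 counts) and Ryr2 (0 to 16 counts) were too low to test.

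Of 14 genes listed with the calcium-sensitive enzymes and carriers, 7 were higher and 6 lower (92.9% called, median 0.04). Not every gene of this list encodes a protein that itself responds to calcium, and Pdp2 does not. The pyruvate dehydrogenase axis was lower at several members, with its subunit Pdha1 lower by -0.83, the phosphatase subunit Pdp2 by -0.80 and the phosphatase regulator Pdpr by -1.19. The carrier Slc25a25, a relative of Slc25a23, was higher by 1.09, with a mean CPM of 42.4 ± 5.61 for 4T1.2, 34.9 ± 4.08 for 4T1, 18.1 ± 2.67 for 66cl4 and 18.02 ± 1.497 for 67NR.

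As a measure of mitochondrial content, 8 genes of general mitochondrial function were read beside these. In the pooled comparison 5 were higher and 1 lower (6 of 8 called, against 76.7% of all genes), with a median of 0.27, including the translocase subunits Timm23 (1.29) and Tomm40 (0.37), the complex I subunit Ndufa9 (0.51) and the mitochondrial transcription factor Tfam (0.42). Tomm40 averaged 156 CPM in 4T1.2 and in 4T1, 99.5 in 66cl4 and 147 in 67NR, and the pairs of lines overlapped. For 66cl4 over 67NR, 0 were higher and 6 lower (median -0.47), beside 22.3% and 22.4% of all genes, a count that fell to 3 without 66cl4 replicate 2 or 67NR replicate 2. Mcub, Smdt1 and Micu3 were lower in the same comparison, and the part of mitochondrial content in their values was not tested.

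Between 66cl4 and 67NR, the other lists gave 0 higher and 4 lower for assembly and turnover, 1 and 2 for efflux, 4 and 3 for transfer, 2 and 2 for reticulum and plasma membrane and 0 and 6 for enzymes and carriers. The shares called were 40.0% to 58.3%, beside 44.7% of all genes. The 3 efflux genes called fell to 1 when any of the 4 libraries of these lines was left out. The 6 enzyme genes fell to 2 without 66cl4 replicate 1 or 67NR replicate 2 and to 1 without 67NR replicate 1. Between 4T1.2 and 4T1 none of these lists had more than 3 genes called, with shares of 0.0% to 21.4%, beside 19.3% of all genes.

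**Figure D5:**
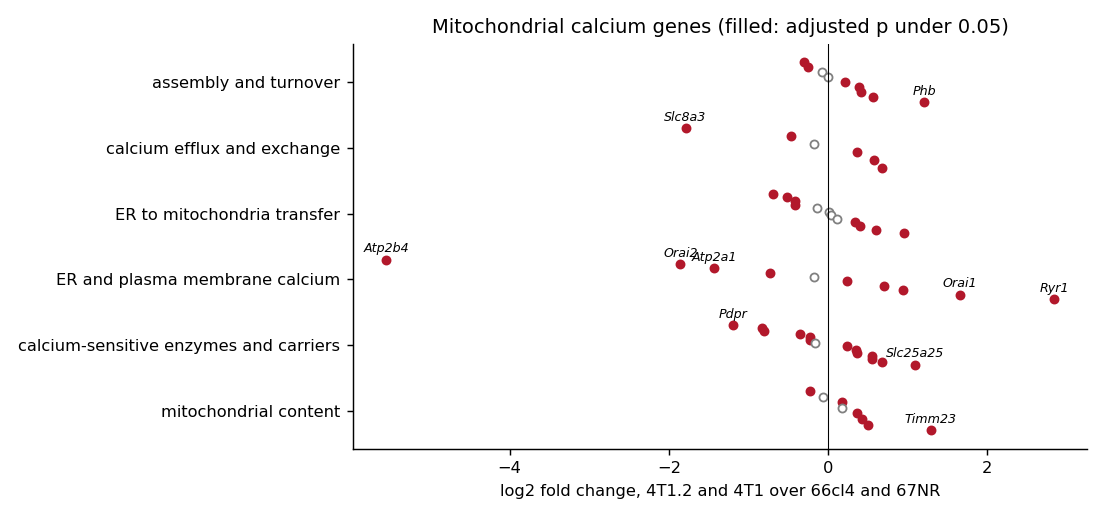
Pooled log2 fold change (4T1.2 and 4T1 over 66cl4 and 67NR) of each tested gene of 6 lists, filled where the adjusted p was under 0.05 (edgeR), with names where it exceeds 1 in size. Every list has called genes on both sides of 0.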

How the data were processed

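Total RNA of 8 libraries, 2 of each line, was prepared with the TruSeq RNA v2 protocol. The authors aligned reads to mm10 (the method is stated for their endothelial libraries and said to apply similarly) and deposited raw counts per Entrez gene from featureCounts, with a gene length. Library totals were 37159840 to 66269681, and intervals and floors cover counting error only. Of 27179 identifiers, 93.0% matched the GRCm38 gene table. After filterByExpr and removal of ribosomal, predicted and unmatched genes (5.35% to 7.96% of counts), 13923 genes were tested by edgeR's quasi-likelihood test (edgeR 4.0.16, limma 3.58.1, R 4.3.3, TMM, prior count 0.125) with a mean for each line, 4 residual degrees of freedom, a biological coefficient of variation of 9.74% and Benjamini-Hochberg adjustment at 0.05. Standard errors derive from the F statistic and are approximate. Their 95% intervals use the residual degrees of freedom.

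The members and lists were chosen with earlier results of these data known. Named from each list were up to 4 called genes of largest pooled change, genes too low to test, and those acting directly on the complex. One gene of this rule and 1 of the 3 ratios are not reported here. On simulated counts for 13923 genes, with 200 changed 2-fold, 200 were called in the pooled comparison, beside 25 unchanged genes, and 199 beside 15 in 66cl4 against 67NR. Few genes were changed there, while 76.7% were called in the real pooled comparison. The simulation therefore does not measure how smaller or more widespread differences are found. Replicate numbers were not used to pair the libraries in the reported fit. Correlations of deviations between lines ran from -0.123 to 0.270, the highest for 4T1.2 with 4T1. In 4T1.2 and in 4T1, Mcu, Micu3, Mcur1 and Slc25a23 were lower in replicate 2 than in replicate 1. Mcub, Smdt1, Micu2 and Ccdc90b were higher in replicate 2 in both lines. Whether these replicates share a batch was not tested. Alternatives were another scaling, filter, tool, prior count, replicate block, removal rule and fit, and each library left out. Stretches of 75 bases were compared with reference transcripts. Analyses used Python 3.11.15, scipy 1.17.1 and DESeq2 1.42.0, and figures matplotlib 3.10.9.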

Additional observations from a re-analysis of the deposited data

How the results depend on the processing

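The number of members called stayed within 1.5 times its reported value under each alternative, with these exceptions. For 4T1.2 over 4T1 it was 0 in place of 1 with at least 10 counts in every library and with a fit of these libraries alone, and 0 to 1 with a library left out. For 4T1.2 over 66cl4 it was 2 in place of 1 with the replicate block (Mcur1, adjusted p = 0.0494, edgeR) and 1 to 2 with a library left out. For 4T1 over 66cl4 it was 2 in place of 4 with a fit of these libraries alone and 2 to 4 with a library left out. Scaled to library totals, the CPM of Micu2 was 157 for 4T1 and 176 for 4T1.2. Where a line was left with 1 library, it was assumed to vary like the others. The causes were not tested.

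The replicate block changed no other call count among the members. It moved the genes called from 9587 to 9745 for 4T1.2 over 66cl4 and raised them in every other comparison too. They went from 2687 to 2886 for 4T1.2 over 4T1 and from 10684 to 10794 in the pooled comparison. The replicate numbers of 4T1.2 and 66cl4 correlated at -0.123. With the numbers of 66cl4 crossed, an alternative chosen after seeing the data, 10211 genes and 2 members were called for 4T1.2 over 66cl4.

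Signs changed only for values not called in the reported fit. Mcu in 4T1.2 over 67NR was 0.0042 with DESeq2 size factors, 0.0061 without removal by annotation and 0.0038 with DESeq2, and -0.17 to 0.13 with a library left out. Leaving out a library also gave Smdt1 -0.33 to 0.14 in 4T1.2 over 4T1, -0.046 to 0.21 in 4T1.2 over 67NR and -0.058 to 0.42 in 4T1 over 67NR. It gave Micu3 -0.19 to 0.062 in 4T1.2 over 66cl4 and Xpo4 -0.050 to 0.24 in the pooled comparison. With 2 libraries a line, small differences were not detectable.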
